A study of Mus musculus with 2 samples.

Results

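The cells described here were 571 aortic smooth muscle cells of the Tsc1 knockout (KO) library in which contractile genes made up at least 2% and under 4% of all transcripts. They were chosen by rule: a cell of the KO library with at least 500 genes detected, at most 10% of its unique molecular identifiers (UMIs, each standing for 1 captured RNA molecule) from mitochondrial genes, at least 5 UMIs of the eGFP reporter, and under 2 UMIs in all of the homeobox genes Dlx5, Dlx6 and Msx2. The contractile share was the percentage of UMIs from 18 genes: Myh11, Acta2, Tagln, Cnn1, Smtn, Myl9, Mylk, Lmod1, Tpm1, Tpm2, Myl6, Actg2, Des, Cald1, Csrp1, Ppp1r14a, Flna and Actn1. Of 2097 KO barcodes, 1806 passed the other filters, and the 571 were 31.6% of these (95% Clopper-Pearson interval 29.5 to 33.8). Another 559 KO cells lay below 2% (the low range) and 676 at 4% or more (the high range). The whole series holds 4192 barcodes. A range cut from a share measured in each cell is a stretch of a continuum and not a cell type. Below, the first step is the intermediate against the high range and the second the low against the intermediate range. Steps follow the share and are no order in time. Levels of the 18 genes between ranges follow from the choice of cells and are given as description.

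Differentiated arterial smooth muscle cells hold large amounts of actin, myosin and calponin, and transcribe many of these genes through serum response factor (SRF) and its coactivator myocardin at CArG boxes. In injured or diseased arteries such cells can lose contractile transcripts and take up matrix, cartilage-like and inflammatory transcripts, a change called phenotypic modulation. Tsc1 encodes hamartin, which with tuberin restrains the growth kinase complex mTORC1. That complex in turn controls the MiT family factors that drive lysosomal genes.

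Cells came from thoracic aortas of male C57BL/6 mice aged 24 weeks, in 1 droplet library of genotype Tsc1+/+ (control) and 1 of genotype Tsc1-/- (KO). Mice of both groups carried Myh11-CreERT2, a tamoxifen-dependent recombinase made in smooth muscle, and the mT/mG reporter, and received tamoxifen at 1.5 weeks, so that the KO is limited to cells in which the recombinase acted. Live GFP-positive cells were sorted before capture, and how many animals went into each library was not given in the sources used here. With 1 library per genotype there was no replicate and no test: every ratio compares summed counts, its 95% interval covers counting error only, and "higher" or "lower" means a difference of at least 1.5 times.

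The 571 cells held 8537549 UMIs. The median cell had 14236 UMIs in the intermediate range, 14839 in the high range and 16020 in the low range, and median mitochondrial shares were 6.08%, 6.03% and 4.89%. Median eGFP counts were 39, 65 and 37 UMIs. Scrublet called 3 of the 571 cells doublets, and they were kept. The 2 matrices share 16 barcodes, of which 4 belong to intermediate KO cells. Tsc1 itself had 99 UMIs in the intermediate range, 11.6 CPM (UMIs of a gene per 1000000 UMIs of the range), against 6.27 CPM in the high and 7.63 CPM in the low range. Tags from the end of a transcript need not cover what was deleted, so the values do not check the genotype.

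The intermediate range was well filled in the KO library and sparse in the control library. Under the same filters the control library held 1350 cells in the high range, 85 in the intermediate range, or 5.92% (4.76 to 7.27), and 1 in the low range. In the KO library the 4 bins of 0.5 percentage points inside the range held 138, 135, 154 and 144 cells, and the neighbouring bins below and above held 146 and 135. No gap set the range apart on either side. Within 0.25 points of the limits lay 67 cells just above 2% and 68 just below 4%, with 73 and 64 cells just outside.

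**Figure D1:**
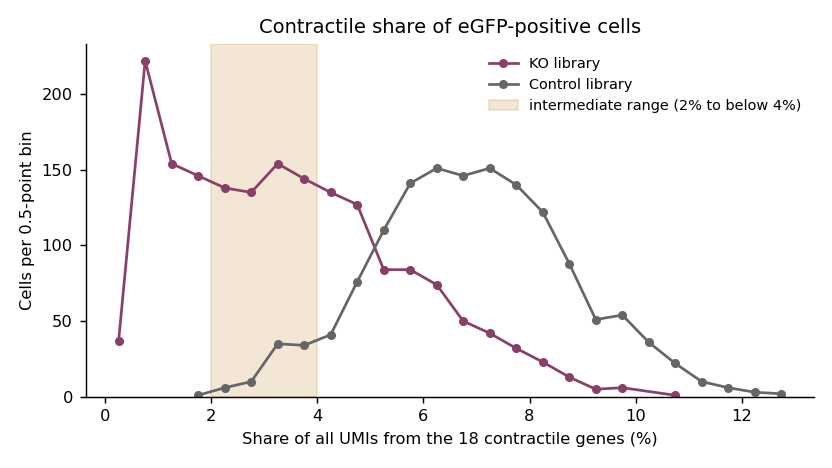
Number of cells (vertical axis) per bin of 0.5 percentage points of contractile share (horizontal axis, % of all UMIs), with 1 line for each library and the intermediate range shaded. The KO line runs level through the shaded range at 135 to 154 cells per bin, where the control line holds 6 to 35.

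Of the 4 genes named for these cells, Acta2, the actin of smooth muscle and a gene of the rule, stood at 21998 CPM in the high, 8743 CPM in the intermediate and 2705 CPM in the low range. Mgp, which encodes matrix Gla protein, a secreted inhibitor of calcification, took the opposite course at 22249, 34405 and 69586 CPM. Gpx3, a secreted glutathione peroxidase, had 955, 1516 and 2831 CPM. In build GRCm38 with GENCODE vM21, Acta2 lies at chr19:34241090-34255590 (minus strand), Mgp at chr6:136872435-136875823, Gpx3 at chr11:54902453-54910377 and Apoe at chr7:19696109-19699188. Mgp and Gpx3 were higher in the intermediate than in the high range, Mgp 1.55 times (1.54 to 1.55) and Gpx3 1.59 times (1.55 to 1.63). Both calls sit near the limit of 1.5 times: Mgp was at 1.49 as a mean over cells and at 1.46 without cells over 25000 UMIs, and Gpx3 at 1.39 among cells with at most 5% mitochondrial UMIs and at 1.45 in a range of 2.5% to 3.5%. Apoe, the lipid-carrying apolipoprotein E, was not: it had 2709 CPM in the high and 2907 CPM in the intermediate range, a ratio of 1.07, and 4963 CPM in the low range. The median intermediate cell had less Apoe than the median high cell, 1945 against 2084 CPM. Its bins from 3% to 3.5% and from 3.5% to 4% had 2283 and 2371 CPM, below the high range. The second step of Apoe was 1.71 times (1.68 to 1.73), and 1.46 times among cells with at most 5% mitochondrial UMIs. Myh11, the smooth muscle myosin heavy chain and a gene of the rule, had at least 1 UMI in all 571 cells, which is given as description since the rule used it.

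Near the limits, levels did not run smoothly. Just outside and just inside the lower limit Mgp had 49610 and 58012 CPM, and just inside and just outside the upper limit 20896 and 28361 CPM. Spp1, which encodes osteopontin, had 343 and 140 CPM on either side of the lower limit and 32.4 and 414 CPM on either side of the upper one. The 414 CPM came from 373 UMIs in 64 cells, and the part of single cells in it was not tested.

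Single cells of the range differed widely. Median levels over cells were 18205 CPM for Mgp, with quartiles of 9617 and 36843 CPM, and 801 CPM for Gpx3, with quartiles of 255 and 1961 CPM. In the high range the median cell had 12656 CPM of Mgp and in the low range 49840 CPM. The 57 intermediate cells with the most UMIs of a gene held 37.4% of the Apoe, 42.3% of the Gpx3 and 45.1% of the Mgp UMIs. They held 68.0% of the UMIs of Vcam1, an adhesion molecule for leukocytes, 78.9% of those of the proteoglycan gene Lum and 86.4% of those of Spp1. The summed levels of the last 3 genes therefore describe a minority of the cells.

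**Figure D2:**
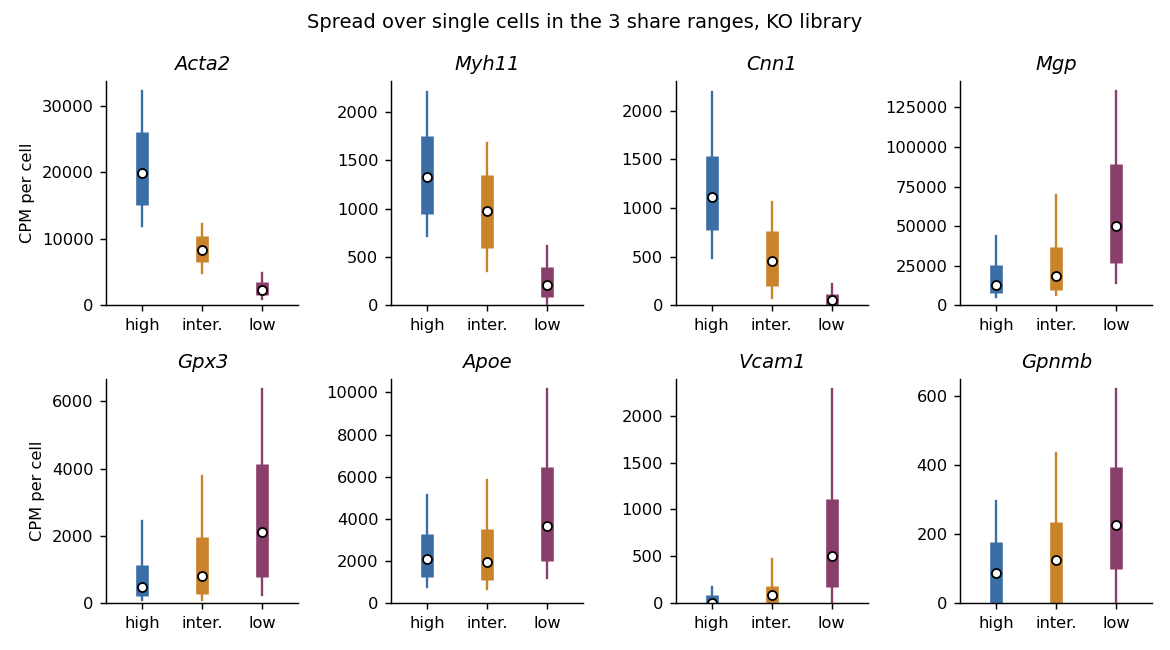
Spread over single KO cells of the level of 8 genes (vertical axes, CPM per cell, starting at 0) in the high, intermediate (inter.) and low range, where circles are medians, thick bars run between quartiles and thin lines between the outer deciles. Median Mgp was 12656, 18205 and 49840 CPM from high to low range, and the spreads of neighbouring ranges overlap for Mgp, Gpx3 and Apoe.

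Inside the range, levels moved with the share itself. From the uppermost bin (3.5% to 4%) to the lowest (2% to 2.5%), Mgp went from 21082 to 47830 CPM, Gpx3 from 984 to 2298 CPM, Apoe from 2371 to 3868 CPM and Vcam1 from 140 to 509 CPM. Myh11 went from 1272 to 648 CPM over the same bins. Split at 3%, the range had 273 cells below and 298 above, with medians of 15006 and 13748 UMIs. Outside the rule genes, 44 of 2909 genes (1.51%) were at least 1.5 times higher in the cells below 3% and 22 (0.756%) at least 1.5 times lower. Mgp had 44039 CPM below 3% and 25060 CPM above it, and Sfrp2, a secreted Wnt modulator, 361 and 96.5 CPM.

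**Figure D3:**
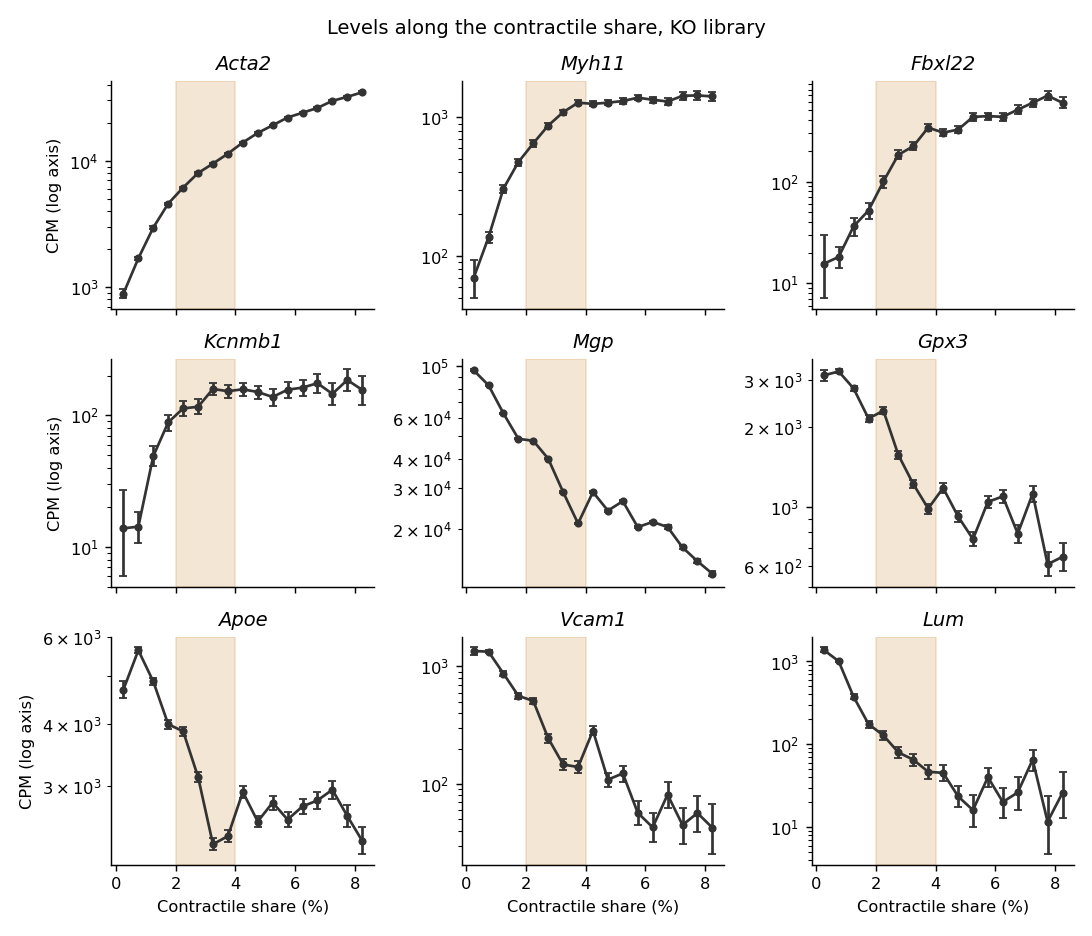
Level of 9 genes (vertical axes, CPM on a log scale) in bins of 0.5 percentage points of contractile share (horizontal axes, %) in the KO library, bins with at least 20 cells, bars are 95% Poisson intervals and the intermediate range is shaded. Myh11 and Kcnmb1 are level above 4% and turn down inside the shaded range, while Acta2 rises along the whole axis and Fbxl22 along most of it. Mgp, Gpx3, Vcam1 and Lum climb toward the left with dips on the way. Apoe has its lowest bin at 3% to 3.5% (2283 CPM, against 2913 CPM at 4% to 4.5%). It climbs only left of that bin, up to 5642 CPM at 0.5% to 1%.

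Of 3029 genes at 50 CPM or more in some range, the 18 rule genes left out, 128 were higher in the intermediate than in the high range (4.23%) and 46 lower (1.52%). From the intermediate to the low range, 147 were higher (4.85%) and 206 lower (6.80%). Both comparisons use the same intermediate cells, so their values are set side by side without a measure of overlap. Among 262 genes that differed at least 2 times between low and high range, 256 had an intermediate level between the other 2, which the choice of genes with distant ends favours. Of all 3029 genes 1693 did so (55.9%). A position was then computed, with 0 at the high-range and 1 at the low-range level. Its median was 0.326 with quartiles of 0.223 and 0.454, and was 0.292 for the 142 genes higher in the low range and 0.392 for the 120 lower ones. By CPM the intermediate cells thus lay nearer the high range. Among cells with at most 5% mitochondrial UMIs, which left 136 intermediate cells, the median position was 0.443 and 81 genes rather than 46 were lower than in the high range.

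The rule genes are described here without a test, since their summed share set the ranges and a lower level follows from that choice. Among them the position was 0.80 for Actg2 (enteric actin), 0.69 for Acta2, 0.69 for Tpm2 (a tropomyosin) and 0.62 for Cnn1 (calponin), but 0.34 for Myh11, 0.17 for Mylk (myosin light chain kinase) and 0.13 for Cald1 (caldesmon). Cald1 had 1093 CPM in the high and 1026 CPM in the intermediate range and then 588 CPM in the low range. Mylk had 1069, 952 and 376 CPM. Actg2 had 299, 77.3 and 20.7 CPM. Acta2 made up 37.9% of the rule genes' UMIs in the high, 29.2% in the intermediate and 24.2% in the low range, so that the rule weighs this gene most.

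Smooth muscle genes outside the rule showed both courses. Of 28 measured at 10 CPM or more, 4 were lower and 0 higher in the intermediate than in the high range, where 1.59% of all 8091 genes measured at that level were lower and 5.45% higher. In the low against the intermediate range 19 of the 28 were lower, against 5.83% of all genes, and 0 higher, against 4.60%. Median log2 ratios were -0.19 and -0.82, against 0.09 and -0.06 over all genes. These shares of all genes are the background for the counts of every list named here. The 4 lower in the first step were Hspb1 (a small heat shock protein of muscle), Ckb (creatine kinase B), Mcam (an adhesion molecule of mural cells) and Pdlim3 (an actinin-associated protein). Hspb1 had 3292 CPM in the high, 1660 CPM in the intermediate and 1029 CPM in the low range, and most of the difference between the outer ranges lay above the intermediate range. Ckb had 635, 346 and 264 CPM.

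Other genes of the list held their level and were lower only in the low range. Itga8, the alpha-8 integrin of smooth muscle, had 690 CPM in the high and 670 CPM in the intermediate range, then 357 CPM. Lpp, a focal adhesion protein, had 494, 521 and 199 CPM, and Vcl (vinculin) 260, 267 and 159 CPM. Kcnmb1, the beta-1 subunit of the calcium-activated potassium channel, had 155, 135 and 42.3 CPM. In the bins above 3% Kcnmb1 was level, with 152 to 158 CPM from 3% to 4.5%, and at 1% to 1.5% it stood at 48.9 CPM. Itga8, Lpp, Vcl and Pdlim3 were singled out after their values were seen.

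Among 15 measured regulators, 1 was higher and 0 lower in the intermediate than in the high range, against 5.45% and 1.59% of all genes. In the low against the intermediate range 1 was higher and 4 lower, against 4.60% and 5.83%. The 4 were Myocd, Srf, Hey2 and Mef2c. Myocd (myocardin) had 47.1 CPM in the high, 52.6 CPM in the intermediate and 21.6 CPM in the low range, and was 2.43 times lower in the low than in the intermediate range (2.06 to 2.88). Srf had 59.8, 57.4 and 37.9 CPM, and its second ratio of 0.661 was 0.688 as a mean over cells, 0.771 with at most 5% mitochondrial UMIs and 0.707 when thinned, past the limit in none of these 3. Hey2, a Notch target, had 40.1, 37.6 and 22.8 CPM. Klf4, a factor known to oppose myocardin, was the 1 regulator higher in the intermediate than in the high range, with 385 CPM in the high, 677 CPM in the intermediate and 740 CPM in the low range. Klf4 also responds early to tissue dissociation. Fosb, an immediate early gene, had 551, 926 and 982 CPM. Of the 29 genes of the dissociation stress list, 2 were higher and 2 lower in the intermediate than in the high range, and the part of dissociation in the Klf4 values was not tested.

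Promoters of contractile genes are shown because many contractile genes are known to be transcribed through SRF sites. RefSeq promoter windows (build GRCm38.p6) were matched for 15 of the 18 rule genes, and the 250 bases before the start site were searched for a CArG-like box, 2 Cs and 2 Gs around 6 bases of A or T with at most 1 C or G among them. The pattern reads alike on both strands. It was found in 3 of the 15 rule genes and in 9 of the 28 other smooth muscle genes with a window, against 9.78% of 27025 genes with a window. A match is no shown binding site. Capitals mark the boxes, with the start site following the last base. The genes shown are Acta2 (chr19:34255374-34255623, minus strand) and Myl9, a myosin light chain (chr2:156775214-156775463, plus strand), of the rule, and Ldb3, a Z-line protein (chr14:34588682-34588931, minus strand), outside it.
Acta2: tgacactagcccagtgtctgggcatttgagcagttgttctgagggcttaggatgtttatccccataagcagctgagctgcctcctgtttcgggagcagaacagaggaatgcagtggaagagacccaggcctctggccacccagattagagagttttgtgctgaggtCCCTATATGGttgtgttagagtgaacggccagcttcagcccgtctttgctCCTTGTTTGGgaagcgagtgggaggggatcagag
Myl9: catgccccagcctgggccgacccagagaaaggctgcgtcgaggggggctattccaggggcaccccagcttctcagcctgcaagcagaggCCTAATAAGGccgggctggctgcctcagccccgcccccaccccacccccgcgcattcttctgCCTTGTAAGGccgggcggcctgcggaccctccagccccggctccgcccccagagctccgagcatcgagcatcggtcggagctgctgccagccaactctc
Ldb3: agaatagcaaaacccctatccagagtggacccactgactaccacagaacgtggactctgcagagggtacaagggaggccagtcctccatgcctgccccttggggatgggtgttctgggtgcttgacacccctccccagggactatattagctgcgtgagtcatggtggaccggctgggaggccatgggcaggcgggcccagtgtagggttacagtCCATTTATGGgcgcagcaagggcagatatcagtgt
Ldb3 had 77.0 CPM in the high, 56.2 CPM in the intermediate and 12.6 CPM in the low range, 4.46 times lower in the second step (3.64 to 5.50). Myl9 had 4886, 2271 and 619 CPM.

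Across all genes, the lowest ratios of intermediate over high range included the following. Igfbp2, an insulin-like growth factor binding protein, had 52.8 CPM in the high, 21.2 CPM in the intermediate and 13.7 CPM in the low range. Along the share it was uneven, with 234 CPM in the 42 cells at 7% to 7.5% and 10.0 and 15.0 CPM in the neighbouring bins. Its second ratio of 0.645 was 0.713 as a mean over cells and 1.45 when thinned. Fbxl22, an F-box protein of the sarcomere Z-line, had 445, 211 and 31.5 CPM, 2.11 times lower in the first step and 6.69 times in the second. Fdps, the farnesyl diphosphate synthase of the cholesterol pathway, had 101, 56.0 and 49.3 CPM and was past 1.5 times in the first step only. Npy1r, a receptor of the vasoconstrictor neuropeptide Y, was among the lowest ratios of the second step instead, with 101, 70.7 and 17.3 CPM.

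The genes with the largest gain over the high range included several scarce ones that gained again in the low range. Lmo2, a transcription cofactor, had 4.51 CPM in the high, 18.2 CPM in the intermediate and 77.5 CPM in the low range, 4.02 times higher in the first step (2.90 to 5.66). Ahsg (fetuin-A, an inhibitor of calcification) had 6.82, 25.5 and 187 CPM. Igf1 (insulin-like growth factor 1) had 8.20, 29.99 and 213 CPM, and Aldh1a1, a retinaldehyde dehydrogenase, 13.0, 42.3 and 165 CPM. Sfrp2 had 70.4, 227 and 604 CPM. Slco2a1, a prostaglandin transporter, had 42.7, 113 and 204 CPM, a position of 0.44, so that nearly as much of its rise lay above as below the intermediate range.

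Of 21 measured genes of modulated smooth muscle, cartilage and bone, 14 were higher in the intermediate than in the high range and 0 lower, against 5.45% higher and 1.59% lower among all genes. In the low against the intermediate range 14 were higher and 1 lower, against 4.60% and 5.83%. The median log2 ratios were 0.88 and 1.15. Earlier results of these data were known when the list was drawn up, and it is no independent evidence of direction. Dcn and Lum are also fibroblast markers. Of 9 measured fibroblast markers 5 were higher in the first and 6 in the second step, and the part of other cells in these values was not tested. Fn1 (fibronectin) had 328 CPM in the high, 735 CPM in the intermediate and 1452 CPM in the low range. Col8a1, a short-chain collagen of vessel walls, had 29.9, 72.2 and 128 CPM, and Sox9, the transcription factor of cartilage, 43.9, 80.8 and 119 CPM. These genes were past 1.5 times in the first step with a sizeable part of the change.

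Others came late. Cytl1, a secreted protein of cartilage, had 11.7 CPM in the high, 30.8 CPM in the intermediate and 333 CPM in the low range, 10.8 times higher in the second step (9.52 to 12.3). A single intermediate cell held 90 of its 263 UMIs, and without it the ratios of Cytl1 were 1.74 in place of 2.63 and 16.4 in place of 10.8. Without cells over 25000 UMIs they were 1.60 and 19.6. Dcn (decorin) had 40.4, 109 and 932 CPM, and Lum (lumican) 30.2, 80.1 and 646 CPM. Their positions were 0.059, 0.077 and 0.081. These positions are on the CPM scale and not on that of ratios. Without the leading intermediate cell, Dcn and Lum were 2.44 and 2.46 times higher in the first step, Fn1 2.19 and Sox9 1.79 times. Vcam1 had 114, 260 and 1014 CPM. Acan (aggrecan), the large proteoglycan of cartilage, went the other way, with 15.5, 17.0 and 3.39 CPM. Among cells with at most 5% mitochondrial UMIs the Acan ratios were 0.409 and 0.451 in place of 1.10 and 0.200. Col2a1, the defining collagen of cartilage, had 0 UMIs in the intermediate range.

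Spp1 stood at 72.7 CPM in the high, 115 CPM in the intermediate and 705 CPM in the low range. A single cell held 297 of the 982 intermediate UMIs. Without it the intermediate level was 80.6 CPM, 1.11 times that of the high range in place of 1.58. The high range kept all its cells, though its highest cell had 10924 CPM of Spp1, against 8764 CPM in the intermediate range. The 1.11 therefore sets a trimmed range against an untrimmed one. Among cells with at most 5% mitochondrial UMIs the ratio of intermediate over high range was 0.420. The second step was 6.13 times (5.73 to 6.56) and 8.75 times without the leading intermediate cell.

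Cells were then thinned to 5000 UMIs each to compare how many carried a transcript. Spp1 was found in 33.5% of all intermediate cells and in 15.5% (12.6 to 18.8) of the 560 deep enough to be thinned, against 11.0% (8.72 to 13.6) in the high and 29.7% (26.0 to 33.7) in the low range. Control cells with 0 eGFP UMIs, which should lack Spp1, gave 0.606% before and 1.54% (0.0389 to 8.28) after thinning, at a median of 3750 UMIs, with 65 of 330 cells left. That library holds hardly any Spp1, so it does not show free Spp1 of the KO library. In the KO library itself 12 cells had 0 eGFP UMIs, at a median of 4657.5 UMIs, all too shallow to be thinned, and Spp1, Vcam1 and Lum were each found in 1 of them (8.33%). Vcam1 was found in 38.9% of thinned intermediate cells, 23.1% of high and 75.1% of low cells, and in 1.54% of the eGFP-negative control cells. Before thinning the same shares were 62.5%, 49.7%, 88.2% and 0.909%. Cnn1 was found in 80.7% of thinned intermediate, 97.3% of high and 29.4% of low cells, and in 0 of the 65 (up to 5.52%).

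Joint detection was counted per cell, where 1 UMI need not mean expression. In the 560 thinned intermediate cells, 185 (33.0%) had a UMI of Spp1, Cytl1 or Lum and 439 (78.4%) had both Cnn1 and Myh11. Both sets were present in 135 cells. Cnn1 with Myh11 was found in 73.0% of the cells that had a late gene and in 81.1% of the 375 that had none. The part of free RNA in these joint counts, for which the 12 KO cells without eGFP give the only background, and that of 2 cells in 1 droplet were not tested.

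Of 10 measured calcification inhibitors, 6 were higher and 0 lower in the intermediate than in the high range, against 5.45% higher and 1.59% lower among all genes. In the low against the intermediate range 5 were higher and 1 lower, against 4.60% and 5.83%. Of the 6, Spp1 and Mgp lost the call in settings given above. Besides Mgp, Ahsg and Spp1 they included Fetub (fetuin-B), with 30.3 CPM in the high, 77.9 CPM in the intermediate and 256 CPM in the low range. Tnfrsf11b (osteoprotegerin) had 60.6, 122 and 280 CPM. Sost (sclerostin, a Wnt inhibitor of bone also made by aortic smooth muscle) ran against the group at 1064, 717 and 260 CPM.

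Among 16 measured collagens 4 were higher and 0 lower in the intermediate than in the high range, against 5.45% higher and 1.59% lower among all genes. Then 2 were higher and 1 lower in the low range, against 4.60% and 5.83%, which is near the share of all genes for the lower side. Col1a1, a chain of fibrillar collagen I, had 223 CPM in the high, 381 CPM in the intermediate and 602 CPM in the low range. Col18a1, a basement membrane collagen, had 388, 382 and 185 CPM. Of 19 elastic fiber and microfibril genes 5 were higher and 0 lower in the first step, and 6 higher and 1 lower in the second. Fbln2 (fibulin-2) had 12.1, 27.4 and 55.9 CPM, and Ltbp2, a latent transforming growth factor binding protein, 10.5, 23.4 and 55.0 CPM. Eln (tropoelastin) differed little, with 1049, 1264 and 1337 CPM.

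Among secreted proteoglycans and glycoproteins, 5 of 22 were higher and 1 lower in the intermediate than in the high range, and 10 were higher and 5 lower in the low than in the intermediate range. Of all genes, 5.45% were higher and 1.59% lower in the first step, and 4.60% higher and 5.83% lower in the second. Postn (periostin) had 447 CPM in the high, 343 CPM in the intermediate and 149 CPM in the low range, and Sparcl1 1833, 1473 and 529 CPM. Of 22 proteases and inhibitors 4 were higher and 1 lower in the first step, and 6 higher and 3 lower in the second. Mmp2, a gelatinase, had 43.6, 90.7 and 268 CPM. Timp1, a tissue inhibitor of such enzymes, had 45.1, 65.7 and 269 CPM and was past 1.5 times only in the second step. Of 26 growth factors and receptors 5 were higher and 1 lower in the first step and 8 higher and 2 lower in the second. The 2 lower ones are near the 5.83% of all genes and are not read as a result. Igfbp5, a binding protein for Igf1, had 149, 319 and 525 CPM, where its relative Igfbp4 had 113, 163 and 740 CPM.

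Adhesion and inflammatory genes were mostly higher in both steps. Of 19 measured, 11 were higher and 0 lower in the intermediate than in the high range, and 15 were higher and 1 lower in the low than in the intermediate range, with median log2 ratios of 0.81 and 1.01. Among all genes 5.45% were higher and 1.59% lower in the first step, and 4.60% higher and 5.83% lower in the second. Icam1, an adhesion molecule of leukocytes, had 11.2 CPM in the high, 19.7 CPM in the intermediate and 58.3 CPM in the low range. Cxcl12, a chemokine, had 69.9, 136 and 273 CPM, and Ptgds (prostaglandin D2 synthase) 52.5, 90.4 and 210 CPM. Without intermediate, high and low cells over 25000 UMIs the Icam1 ratio of the first step was 1.36 in place of 1.751.

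Several apparent peaks in the intermediate range came from 1 cell. Cxcl10, a chemokine induced by interferon, had 2.76 CPM in the high, 26.0 CPM in the intermediate and 2.12 CPM in the low range, but 1 cell held 196 of its 222 UMIs, and without it the level was 3.06 CPM. The interferon gene Ifit1 had 11.4, 26.9 and 11.7 CPM, with 150 of 230 UMIs in 1 cell and 9.41 CPM without it. S100a8, which encodes a calcium-binding protein of neutrophils, had 5.99, 33.3 and 3.92 CPM, with 242 of 284 UMIs in 1 cell and 4.93 CPM without it. S100a9, its partner, had 5.07, 28.9 and 2.01 CPM, and 3.40 CPM in the intermediate range without the leading cell. The leading cells of Cxcl10 and Ifit1 both had 31745 UMIs in all, and those of S100a8 and S100a9 both had 11028. These peaks are therefore not read as separate cases.

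Only 1 of the 3029 genes (0.0330%) was at least 1.5 times higher in the intermediate than in both other ranges, and 0 were lower than in both. It was Rgs5, a regulator of G protein signalling abundant in pericytes, with 22.5 CPM in the high, 68.9 CPM in the intermediate and 41.0 CPM in the low range. A single cell, with 11028 UMIs in all like the leading cell of S100a8 and S100a9, held 203 of the 588 Rgs5 UMIs. Without it the intermediate level was 45.2 CPM, 2.01 times the high range but 1.10 times the low range, so that the peak ended. Of the 571 cells, 12 had 10 UMIs or more of Rgs5.

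Lysosomal genes, the known targets of MiT factors downstream of mTORC1, did not separate the intermediate from the high range. Of 47 measured, 0 were higher and 0 lower, with a median log2 ratio of 0.05, against 5.45% higher and 1.59% lower among all genes measured. In the low against the intermediate range 11 were higher and 0 lower, against 4.60% and 5.83%. Npc2, the lysosomal cholesterol carrier, had 265 CPM in the high, 337 CPM in the intermediate and 620 CPM in the low range. Ctsd (cathepsin D) had 579, 598 and 1012 CPM, Ctsl (cathepsin L) 516, 417 and 672 CPM and Gpnmb, a lysosomal and melanosomal glycoprotein, 130, 180 and 285 CPM. Of 15 subunits of the vacuolar proton pump 0 were past 1.5 times in either step and direction. Among 17 autophagy genes the 1 past 1.5 times was Gabarapl1, an autophagosome protein, with 323, 440 and 728 CPM, and it was so in the second step only. With at most 5% mitochondrial UMIs the second-step ratios of Gpnmb, Ctsl and Gabarapl1 were 1.36, 1.38 and 1.46, all under the limit of 1.5. Of the 28 measured genes of the TSC and mTORC1 pathway, Tsc1 was the 1 past 1.5 times, higher in the first and lower in the second step, on the few UMIs given above. Among cells with at most 5% mitochondrial UMIs the Tsc1 ratios were 1.02 and 0.991 in place of 1.85 and 0.658, and the second was 0.820 when thinned and 0.678 without 1 cell. Its partner Tsc2 (tuberin) had 25.5, 26.1 and 28.7 CPM.

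The Ctsd promoter (chr7:142387828-142388077, minus strand, GRCm38.p6, RefSeq) is shown because MiT factors bind the E-box CACGTG, which equals its own reverse complement. The letters stood in the 250 bases before the start of 14 of 37 lysosomal genes with a window (37.8%), against 6.86% of 27025 genes, and in 0 of the 15 rule genes. Capitals mark them.
Ctsd: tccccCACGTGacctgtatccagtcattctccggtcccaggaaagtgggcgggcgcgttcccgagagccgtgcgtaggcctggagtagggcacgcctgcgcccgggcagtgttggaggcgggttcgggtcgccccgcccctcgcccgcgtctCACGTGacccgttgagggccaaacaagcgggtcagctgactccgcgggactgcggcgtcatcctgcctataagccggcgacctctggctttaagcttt
Ctsd held 1.03 times its high-range level in the intermediate range (0.995 to 1.07) and 1.69 times its intermediate level in the low range (1.64 to 1.751).

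Of 32 measured redox and iron genes, 4 were higher and 1 lower in the intermediate than in the high range, against 5.45% higher and 1.59% lower among all genes. In the low against the intermediate range 3 were higher and 1 lower, against 4.60% and 5.83%. Counts this small are not read as a result about the group. Ftl1, the ferritin light chain, had 3652 CPM in the high, 5646 CPM in the intermediate and 8218 CPM in the low range. The metallothioneins Mt1 and Mt2 had 1446, 2253 and 2969 CPM and 502, 890 and 1067 CPM. Gpx1, a cytosolic glutathione peroxidase, ran against the secreted Gpx3, with 1613, 1220 and 600 CPM. Of 18 lipid genes 2 were higher and 0 lower in the first step, and 4 higher and 2 lower in the second. Lpl (lipoprotein lipase) had 69.1, 109 and 190 CPM, and Fabp4, a fatty acid carrier, 226, 162 and 100.3 CPM.

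All 15 glycolysis genes were measured, 0 were past 1.5 times in either step, and the median log2 ratio was -0.40 in the first and -0.04 in the second step, against 0.09 and -0.06 over all genes. Gapdh had 1519 CPM in the high, 1119 CPM in the intermediate and 976 CPM in the low range, and Tpi1 (triose phosphate isomerase) 325, 233 and 233 CPM. Hk2 (hexokinase 2) had 68.5, 94.8 and 116 CPM. The 13 mitochondrially encoded genes had a median log2 ratio of 0.03 and then -0.28, and their part in the other values was not tested. Of 16 genes of the unfolded protein response 1 was higher and 0 lower in the first step, which is near the 5.45% and 1.59% of all genes. In the second step 0 were past 1.5 times, against 4.60% higher and 5.83% lower among all genes.

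Of 8 measured proliferation genes, the cyclin D1 gene Ccnd1 was higher in both steps, with 9.40 CPM in the high, 20.4 CPM in the intermediate and 55.1 CPM in the low range. Cdkn2a, which encodes inhibitors of the cell cycle, had 0.921, 0.703 and 23.4 CPM. The intermediate value of Cdkn2a rests on 6 UMIs, and the low range was 33.3 times higher (15.1 to 91.8).

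**Figure D4:**
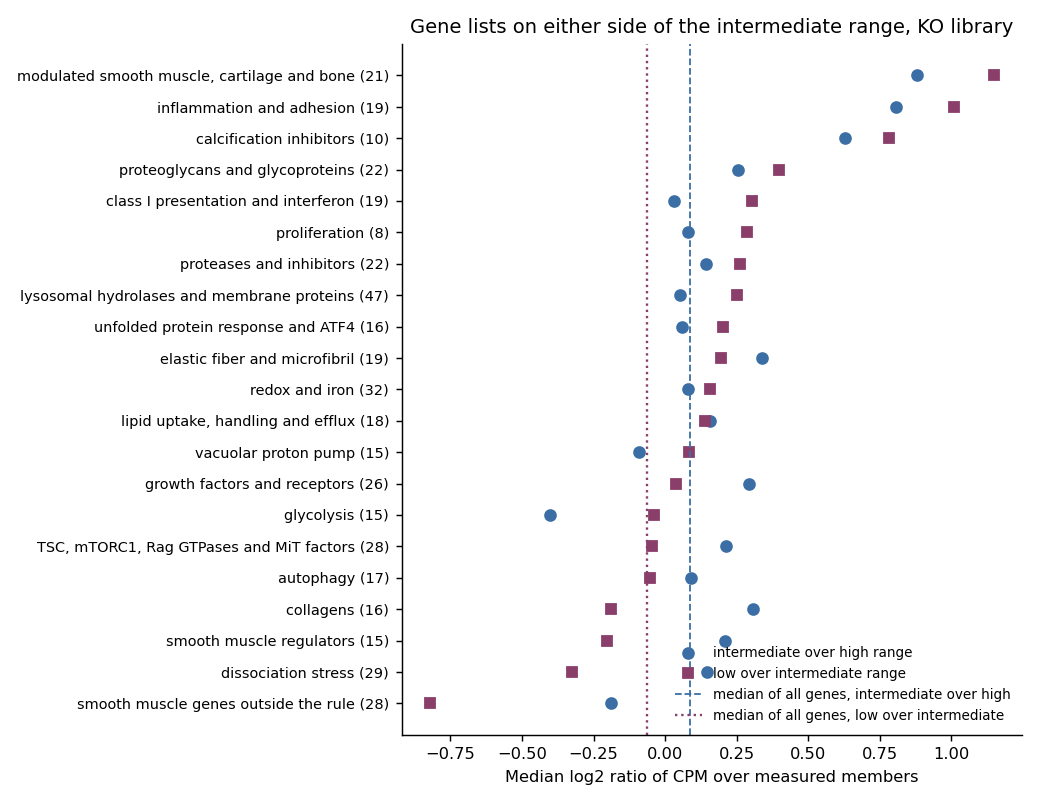
Median log2 ratio of CPM (horizontal axis) over the measured members of each gene list (rows, number measured in brackets), with circles for the intermediate over the high range and squares for the low over the intermediate range of the KO library, and dashed and dotted lines for the medians of all genes (0.09 and -0.06). Modulated, inflammatory and calcification inhibitor genes lie right of both lines in both steps, smooth muscle genes outside the rule lie farthest left in the second step (-0.82), and the lysosomal list lies near the line in the first step (0.05).

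Markers of other cell types were summed in each range. The 12 macrophage markers summed to 18.04 CPM in the intermediate range, 15.0 CPM in the high and 18.1 CPM in the low range, with C1qa, C1qc and Adgre1 at 0. The 10 endothelial markers summed to 30.9, 22.8 and 23.1 CPM from high to low, with Cdh5, Tie1 and Tek at 0. The lymphocyte markers summed to 1.47, 6.21 and 5.62 CPM. The pericyte markers summed to 555, 722 and 733 CPM and the chondrocyte markers to 60.2, 98.6 and 127 CPM. These rising sums hide members that fell. Of 6 measured pericyte markers 2 were higher and 0 lower in the first step, then 1 higher and 3 lower in the second. Most of the chondrocyte sum was Sox9, and of 2 measured chondrocyte markers 0 were higher and 1 lower in the second step. The 12 fibroblast markers summed to 1043, 1085 and 2782 CPM from high to low, with Pi16 and Scara5 at 0 in the intermediate range. The 5 neutrophil markers summed to 14.4, 64.3 and 7.53 CPM, and in the intermediate range 1 cell held 242 UMIs of S100a8 and 218 of S100a9. The 9 Schwann cell and melanocyte markers summed to 4.79, 10.3 and 55.7 CPM.

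With the 18 genes set aside, cells of the intermediate range were spread over several clusters, as were those of the other ranges. Clustering at 1 resolution can cut a continuum too, so it cannot show whether a range is 1 group. KO cells clustered without the 18 genes gave 6 clusters. Cells of each range fell into all 6, in some with only 1 or 2 cells. Cluster 1 took 239 of the intermediate cells, or 41.9% (37.8 to 46.0), beside 241 high and 9 low cells. Cluster 3 took 146, or 25.6% (22.0 to 29.4), beside 28 high and 113 low cells. Cluster 4 took 113 and was mostly high cells, 392 of 524. Cluster 2 took 52 and was mostly low cells, 393 of 449. The median contractile share was 3.97% in cluster 1, 2.26% in cluster 3, 5.20% in cluster 4 and 0.984% in cluster 2. Leading genes, given to identify the clusters and not as results, were Hspa1b and Scube3 for cluster 1, Dcn and Ahsg for cluster 2, Arc and Ptgs2 for cluster 3 and Wnt16 and Mgst3 for cluster 4. Arc and Ptgs2 answer quickly to stimulation, and the part of cell handling in this grouping was not tested. Clusters 5 and 6 took 14 and 7 intermediate cells, beside 10 and 1 high and 2 and 23 low cells. Cluster 5 was led by Camp, Ngp, S100a9 and S100a8, with Rgs5 also among its leading genes, and cluster 6 by Coch and Ctla2a.

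**Figure D5:**
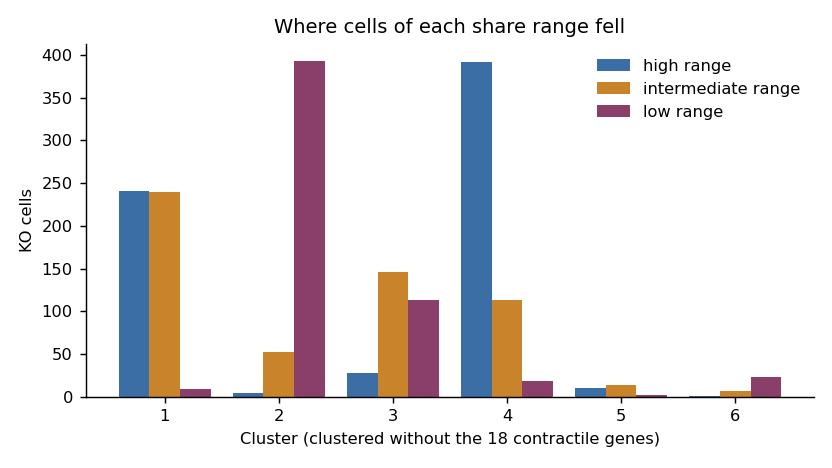
Number of KO cells (vertical axis, starting at 0) of the high, intermediate and low range in each of 6 clusters made without the 18 contractile genes (horizontal axis). Intermediate cells are spread over clusters 1 (239), 3 (146), 4 (113) and 2 (52), high cells lie mainly in clusters 4 and 1, and low cells mainly in cluster 2 (393).

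Control cells in the same range of contractile share were unlike the KO cells. Inside the range the shares were not matched, with medians of 3.42% in the control and 3.05% in the KO cells. In the KO bins from 3% to 3.5% and from 3.5% to 4%, Mgp had 28795 and 21082 CPM and Gpx3 1217 and 984 CPM. The part of this mismatch in the ratios below was not tested. The comparison is between 571 KO cells and 85 control cells with 714581 UMIs and a median of 8005 UMIs per cell. Of 3168 genes 362 were at least 1.5 times higher in the KO cells (11.4%) and 444 lower (14.0%). At this depth counting error alone can put scarce genes past 1.5 times, and its share in these counts was not tested. The libraries also differed outside this range. Gpx3 was found in 80.1% of thinned KO and 0.928% of thinned control cells of the high range. Acta2 had 8743 CPM in the KO and 8156 CPM in the control cells. Gpx3 had 1516 against 22.4 CPM, 67.7 times higher (41.7 to 119), Apoe 2907 against 361 CPM, 8.05 times (7.12 to 9.14), and Mgp 34405 against 10422 CPM, 3.30 times (3.23 to 3.38). Gpnmb had 180 against 15.4 CPM, 11.7 times (6.51 to 23.5). Spp1 had 982 UMIs against 0 in the control cells, at least 27.4-fold higher when set against a floor of 3 control counts.

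Several genes lay higher in the control cells. Rgs5 had 819 CPM there against 68.9 CPM, 11.9 times lower in the KO cells (10.6 to 13.4). Meg3, a noncoding RNA, had 852 against 108 CPM, and Mfap5, a microfibril protein, 788 against 101 CPM. Dlx5, Dlx6 and Msx2, held under 2 UMIs per cell by the rule, still reached a sum of 37.8 CPM among control against 3.51 CPM among KO cells, and their part in these differences was not tested. Within the control library, its 85 intermediate cells stood against 1350 high cells with Gpx3 at 22.4 and 4.31 CPM, Mgp at 10422 and 5242 CPM, and Klf4 at 1016 and 515 CPM.

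The table of averages deposited by the authors gives the same 18 genes by cluster. In the authors' deposited table the rule genes made up 6.84%, 5.26%, 3.87%, 2.71% and 1.60% of the counts in KO clusters 0, 1, 3, 4 and 2. KO clusters 3 and 4 of the authors' deposited table therefore have averages inside the range used here, with Mgp at 480 and 130 per 10000 counts. KO cluster 4 does not follow the course of the ranges. Its Mgp, Gpx3 (4.04) and Apoe (15.5) lie below those of KO cluster 1 (181, 5.13 and 24.3), which has a larger share. Control cluster 2 also has an average inside the range, 3.03%, with Mgp at 181 and Apoe at 22.6. Those averages have no spread or number of cells. Their cells need not be those of the ranges. The filters used here left out 160 KO cells by mitochondrial share, 17 by eGFP and 113 by homeobox UMIs.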

How the data were processed

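Droplet single-cell RNA libraries of sorted aortic cells were analysed from the deposited matrices of raw UMI counts per gene and cell. The submitters' processing notes name Seurat 2.0, Cell Ranger and bcl2fastq and the build mm10. Settings of cell calling were not given in the sources used here. In the annotation, 27645 of 28000 gene IDs were matched in GENCODE vM21. A table the authors deposited holds averages per cluster, in 16 columns that each sum to 10000. The members, gene lists and alternatives were chosen with earlier results of these data known.

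UMIs of all cells in a range were added up and scaled to CPM. Ratios have exact conditional binomial 95% intervals, counts exact Poisson intervals and shares exact binomial (Clopper-Pearson) intervals, all for counting error only. A gene was compared at 50 CPM or more in at least 1 range (10 CPM for lists) and called at 1.5 times. Depth limits scarce genes: 3 counts equal 0.351 CPM in the intermediate KO range and 4.20 CPM in the control cells of that range. Clustering (Scanpy 1.11.5, Leiden, 2000 variable genes, 30 components, 15 neighbours, resolution 0.5) and thinning used fixed seeds (Python 3.11.15, SciPy 1.17.1). The procedure was tested on simulated data. These were Poisson sums without differences between cells, so the test checks the code and not how the intervals hold for uneven cells. Genes named were the 4 markers, rule genes, the 10 largest and smallest ratios, peaks and dips, the 5 most abundant genes and up to 3 list members at either end. Itga8, Lpp, Vcl, Pdlim3, Ctsd, Ftl1, Icam1, Ptgds, Eln, Tsc2, Wisp2, the leading genes of clusters and the promoters shown were chosen after their values were seen. Promoters came from RefSeq (GRCm38.p6). Alternatives were the mean over cells, a denominator without rule genes, at most 5% mitochondrial UMIs, eGFP at 10 UMIs, doublets left out, thinning, a range of 2.5% to 3.5%, a minimum of 10 CPM and 2 times; 2 more were added after seeing the data.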

Additional observations from a re-analysis of the deposited data

Results flagged for a closer look

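Wisp2, which encodes a secreted protein of the CCN family, moved in opposite directions with the contractile share in the 2 libraries. In the KO library it had 138 CPM in the intermediate and 90.7 CPM in the high range, a ratio of 1.52 (1.40 to 1.66). In the control library it had 104 and 156 CPM, a ratio of 0.665 (0.520 to 0.838). It was the 1 gene of 2661 compared in both libraries that was past 1.5 times in opposite directions. With 1 library of each genotype the difference was not tested. The KO ratio was 1.44 without the intermediate cell with the most Wisp2 UMIs, 1.46 as a mean over cells and 1.48 over UMIs outside the rule genes.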

How the results depend on the processing

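No paired analysis was possible because each genotype has 1 library and the labels give no replicate numbers. With a minimum of 10 CPM, 441 genes were higher and 129 lower in the intermediate than in the high range, 372 higher and 472 lower in the low than in the intermediate range, 15 highest and 4 lowest in the intermediate range. At 2 times these counts were 34, 2, 54, 62 and 0 highest. Fewer or more genes could pass by construction. With at most 5% mitochondrial UMIs, 81 genes were lower than in the high range, 2 highest and 2 lowest, and the median position was 0.443. Thinning gave 3 highest genes and the 2.5% to 3.5% range 5. These counts and the position stayed within 1.5 times (the position within 0.05) when doublets were left out, at 10 eGFP UMIs, over UMIs outside the rule genes, as a mean over cells and without cells over 25000 UMIs.

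Reversed here means a ratio past 1.5 times that moved to the other side of 1. Smaller ratios could also cross 1, such as Acan in the first step, from 1.10 to 0.409 with at most 5% mitochondrial UMIs. Ratios that reversed, intermediate over high, with at most 5% mitochondrial UMIs were Spp1 0.420, Rgs5 0.912, Ifit1 0.702, S100a8 0.651 and S100a9 0.372. In the 2.5% to 3.5% range Ifit1 was 0.409 and Ifit3 0.808. Without cells over 25000 UMIs, Ifit1 was 0.844 and Ifit3 0.937. Without the intermediate cell richest in the gene, Ifit1 was 0.823, S100a8 0.823 and S100a9 0.671. Low over intermediate, Ifit1 became 1.46, 2.498, 1.20 and 1.24 in the same 4 settings, and Igfbp2 became 1.45 when thinned. For the single-cell setting the cause is the 1 cell. For the others the cause was not tested. Of 1745 ratios of genes named in the text under 9 alternatives, 77 lost their call, 25 of them with at most 5% mitochondrial UMIs, among them Gpx3 (1.39 and 1.48) and Apoe (1.46, second step). Mgp in the first step was 1.49 as a mean over cells and 1.46 without cells over 25000 UMIs. Medians of the gene lists, each step counted apart, moved by more than 0.1 (log2) in 33 of 62 cases with at most 5% mitochondrial UMIs (by up to 0.60), 16 of 64 in the 2.5% to 3.5% range (0.90), 12 of 64 when thinned (0.99), and 8 of 64 each as a mean over cells (0.61) and without cells over 25000 UMIs (0.80). They moved in 0 of 64 in the other 3 settings.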
